A study of Mus musculus with 8 samples.

Results

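The growth factors that bind the EGF receptor, the receptor itself (Egfr) and its feedback inhibitor Errfi1 were followed in mouse embryonic fibroblasts (MEFs) given oncostatin M. The set holds 7 genes: the ligands Ereg, Areg, Hbegf, Btc and Tgfa, then Egfr and Errfi1. Every probe set whose only gene symbol in the array annotation is one of these names was taken, which gave 10 probe sets for 6 genes out of 8251 genes with such a probe set. Expression of Areg is not analysed here. The genes were chosen with earlier oncostatin M results of these data known, so their values in the oncostatin M comparisons are a description with no test.

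There were 4 groups of 2 arrays each: STAT3-/- cells with and without oncostatin M (Stat3 KO OSM and Stat3 KO untreated), and STAT3+/+ cells with and without it (Stat3 WT OSM and Stat3 WT untreated). OSM, an interleukin-6 type cytokine that signals through gp130, was given at 20 ng/ml for 30 minutes, and all cells grew in medium with 10% serum and 2 mM glutamine. Both lines had immortalised spontaneously in culture, and 1 line stands for each genotype, so an effect of losing Stat3 and any unrelated difference of the lines cannot be told apart. Treatment was read from the titles, since the culture description mentions OSM for every sample, and the titles number the arrays of every group 2 and 3. In such bulk RNA, fewer cells that express a gene and less of its RNA per cell cannot be told apart.

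Ligands of the EGF family are made as precursors anchored in the cell membrane, and proteases of the ADAM family cut them free. A ligand bound to Egfr, a receptor tyrosine kinase, switches on the Ras-ERK and PI3-kinase pathways, which drive growth and migration of fibroblasts and epithelia. Errfi1, also called Mig6, binds the kinase domain of the active receptor and shuts it off, and its own gene is switched on by ERK signalling, so it closes a feedback loop.

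Promoter sequence was available for 5 of the 7 genes (Areg, Btc, Tgfa, Egfr and Errfi1) in RefSeq for build GRCm38.p6, and Ereg and Hbegf were not matched. The 250 bases before the annotated start sites of Errfi1 (2 start sites) and Egfr are shown, because Errfi1 was among the transcripts highest above untreated with OSM and Egfr, the receptor it inhibits, was not. They lie at chr4:150853546-150853795 and chr4:150854820-150855069 for Errfi1 and at chr11:16751953-16752202 for Egfr. All 3 are on the plus strand, written 5′ to 3′, and capitals mark the letters TGACGTCA (the cyclic AMP response element, CRE) and TATAAA (the TATA box).
Errfi1 start site 1: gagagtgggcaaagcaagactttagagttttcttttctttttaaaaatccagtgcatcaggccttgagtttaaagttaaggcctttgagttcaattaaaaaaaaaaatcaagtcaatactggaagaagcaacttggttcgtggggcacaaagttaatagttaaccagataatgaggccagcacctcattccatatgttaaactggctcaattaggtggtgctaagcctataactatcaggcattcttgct
Errfi1 start site 2: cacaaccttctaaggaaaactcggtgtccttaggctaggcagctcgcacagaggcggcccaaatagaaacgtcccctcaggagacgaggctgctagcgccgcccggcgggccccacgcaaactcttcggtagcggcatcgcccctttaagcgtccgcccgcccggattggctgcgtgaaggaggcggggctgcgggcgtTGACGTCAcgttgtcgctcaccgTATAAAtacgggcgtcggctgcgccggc
Egfr: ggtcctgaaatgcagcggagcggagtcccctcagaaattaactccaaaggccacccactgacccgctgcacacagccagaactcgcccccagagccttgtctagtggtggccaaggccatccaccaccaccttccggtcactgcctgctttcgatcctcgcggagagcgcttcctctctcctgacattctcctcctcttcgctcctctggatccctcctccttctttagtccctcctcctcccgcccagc

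The window before the second start site of Errfi1 held TGACGTCA from -51 to -44 and TATAAA from -28 to -23 relative to the start, and the other 2 windows held neither. The window of Areg, an EGF receptor ligand, held both as well, TGACGTCA from -61 to -54 and TATAAA from -31 to -26. Of 32851 mouse promoter windows of 250 bases read on both strands, 1.55% held the first motif and 12.4% held the second. None of the windows of these 5 genes held an AP-1 site (TGANTCA, in 6.75% of all windows), a STAT site (TTCNNNGAA, 7.02%) or a CArG box, the site of serum response factor (1.47%). The searched motifs do not overlap each other in the windows shown. A match is a match of letters and was not tested as a binding site.

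Each probe set has a log2 expression value, from -1.16 to 17.18 over the whole table, with array medians of 5.25 to 5.65. Probe sets that reached log2 5 on 2 or more arrays were tested, and 6756 probe sets of 5195 genes were kept. Of the 10 probe sets of the EGF receptor genes 8 were kept, and the Tgfa probe set and 1 of 2 Ereg probe sets lay under 5 on every array. The other Ereg probe set passed only through the OSM arrays, since of its untreated arrays only replicate 3 of Stat3 WT reached 5 (5.16). The filter thus favoured a difference with OSM for this probe set but did not set its size. The targeted gene matched its labels: Stat3 read 8.70 and 9.17 in Stat3 KO OSM and 8.08 and 7.81 in Stat3 KO untreated cells, against 11.82 and 11.94 in Stat3 WT OSM and 10.11 and 10.50 in Stat3 WT untreated cells. Another Stat3 probe set read 2.94 and 7.30 in Stat3 KO OSM cells and 2.76 and 2.86 in Stat3 KO untreated cells, so replicate 3 of Stat3 KO OSM stood apart, and the oncostatin M values of Ereg, Hbegf, Errfi1 and Egfr and of the pathway lists are given without it as well. Of 9 fibroblast markers 7 were at 5 or more on every array, while Thy1 (at most 2.42) and Vim (at most 3.70) were under 5 throughout. The epithelial markers were under 5 on every array for 6 of 8 genes, and Krt18 reached 5.20 while Krt8 was above 5 only in replicate 2 of Stat3 WT OSM (5.14) and of Stat3 WT untreated cells (5.66). Of 8 leukocyte markers 6 were under 5 on every array, with Cd14 (9.34 to 11.62) and Csf1r the others. The 2 Csf1r probe sets disagreed: 1 was between 8.80 and 10.20 on all arrays, and the other read 6.80 and 5.60 in Stat3 KO OSM and 6.88 and 4.41 in Stat3 KO untreated cells, against 7.76 and 10.20 in Stat3 WT OSM and 7.13 and 9.75 in Stat3 WT untreated cells, all lower in Stat3 KO. The part of these markers in the genotype comparisons was not tested.

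Ereg, the gene of the ligand epiregulin, was near or under the floor without OSM and well above it with OSM, in both genotypes. Its kept probe set read 10.76 and 10.94 in Stat3 KO OSM cells, against 3.35 and 4.64 in Stat3 KO untreated cells. In Stat3 WT OSM cells it read 8.89 and 8.67, against 4.09 and 5.16 in Stat3 WT untreated cells. The OSM and untreated arrays did not overlap in either genotype, and both Stat3 KO OSM arrays lay above both Stat3 WT OSM arrays. The log2 difference, OSM minus untreated, was 6.85 ± 0.57 in Stat3 KO (a ratio of 116) and 4.15 ± 0.57 in Stat3 WT (a ratio of 17.7; limma standard errors, n = 2 arrays per group). Untreated Ereg was under 5 on 3 of 4 arrays, so these sizes depend on values that were not above the floor. With values under 5 set to 5 the ratios were 57.7 in Stat3 KO and 13.0 in Stat3 WT. By OSM difference Ereg stood at rank 2 of 6756 probe sets in Stat3 KO and at rank 7 in Stat3 WT, and at ranks 1 in Stat3 KO and 5 in Stat3 WT with values under 5 set to 5.

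Within replicate 2 the OSM difference of Ereg was 7.40 in Stat3 KO and 4.79 in Stat3 WT, and within replicate 3 it was 6.30 in Stat3 KO and 3.51 in Stat3 WT. The Stat3 KO difference exceeded the Stat3 WT difference by 2.61 in replicate 2 and by 2.80 in replicate 3. Levels under 5 have little order. With values under 5 set to 5, the OSM differences were 5.85 in Stat3 KO and 3.70 in Stat3 WT, and the gap between the genotypes was 1.87 in replicate 2 and 2.44 in replicate 3. Without replicate 3 of Stat3 KO OSM the Stat3 KO difference was 6.76 and the gap between genotypes 2.61. The other Ereg probe set stayed between 2.80 and 3.87 on all 8 arrays and had OSM differences of 0.28 in Stat3 KO and -0.12 in Stat3 WT, so the probe sets of this gene disagree.

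**Figure D1:**
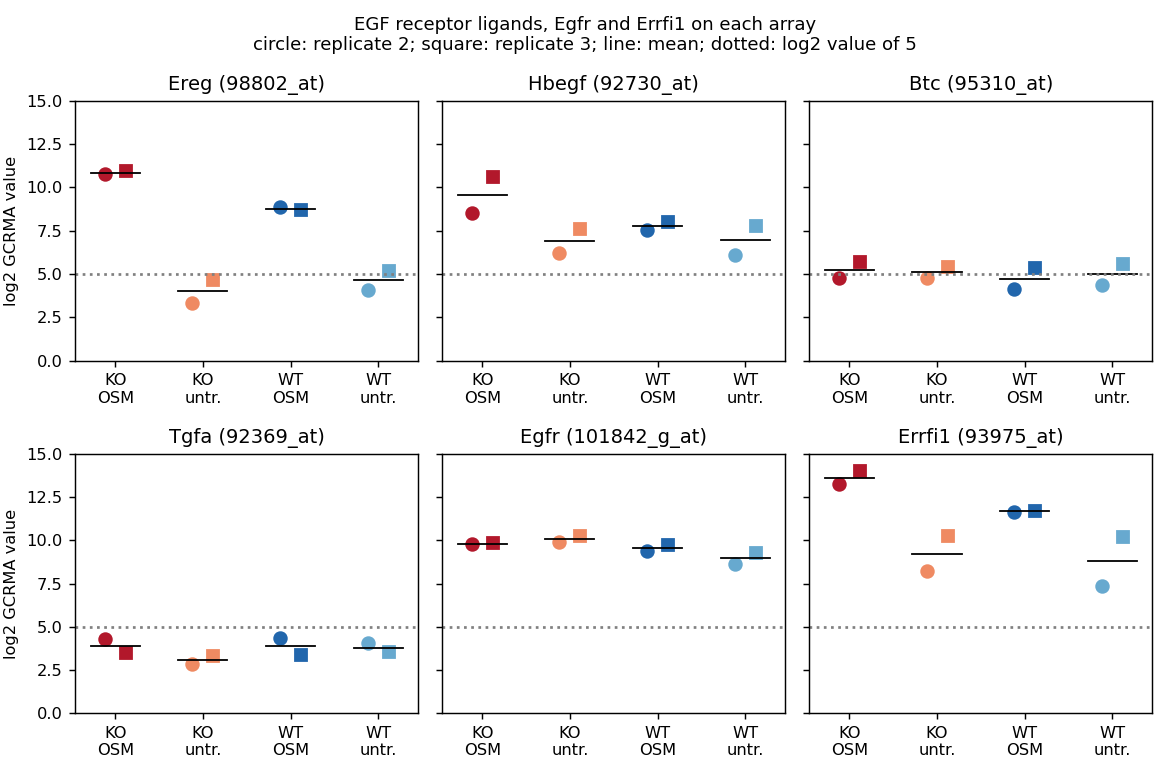
Log2 expression value on each array (points, circles for replicate 2 and squares for replicate 3) and group mean (lines) for 1 probe set of each EGF receptor gene, the one with the highest mean, with Stat3 KO OSM, Stat3 KO untreated, Stat3 WT OSM and Stat3 WT untreated from left to right. The Ereg and Errfi1 points with OSM lie above the untreated points of the same genotype, while Btc and Tgfa stay near or under the floor of 5.

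Hbegf, the gene of heparin-binding EGF-like growth factor, read 8.49 and 10.58 in Stat3 KO OSM cells, against 6.20 and 7.58 in Stat3 KO untreated cells. It read 7.52 and 8.0 in Stat3 WT OSM cells, against 6.10 and 7.79 in Stat3 WT untreated cells. The OSM and untreated arrays were apart in Stat3 KO and overlapped in Stat3 WT. The OSM difference was 2.65 ± 0.92 in Stat3 KO, at rank 44, and 0.82 ± 0.92 in Stat3 WT, at rank 322. By replicate it was 2.29 and 3.01 in Stat3 KO and 1.42 and 0.21 in Stat3 WT, so the gap between genotypes was 0.87 in replicate 2 and 2.80 in replicate 3. Without replicate 3 of Stat3 KO OSM the Stat3 KO difference was 1.61 and the gap 0.79, and without replicate 2 of that group they were 3.69 and 2.88.

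Btc, the gene of betacellulin, and Tgfa, the gene of transforming growth factor alpha, stayed low. Btc read 4.77 and 5.67 in Stat3 KO OSM cells and 4.76 and 5.43 in Stat3 KO untreated cells, and 4.10 and 5.35 in Stat3 WT OSM cells and 4.36 and 5.59 in Stat3 WT untreated cells. Its OSM difference was 0.13 ± 0.68 in Stat3 KO and -0.24 ± 0.68 in Stat3 WT, and the arrays overlapped in both. Tgfa was between 2.88 and 4.37 on all arrays, under the floor, so its levels have little order.

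**Figure D2:**
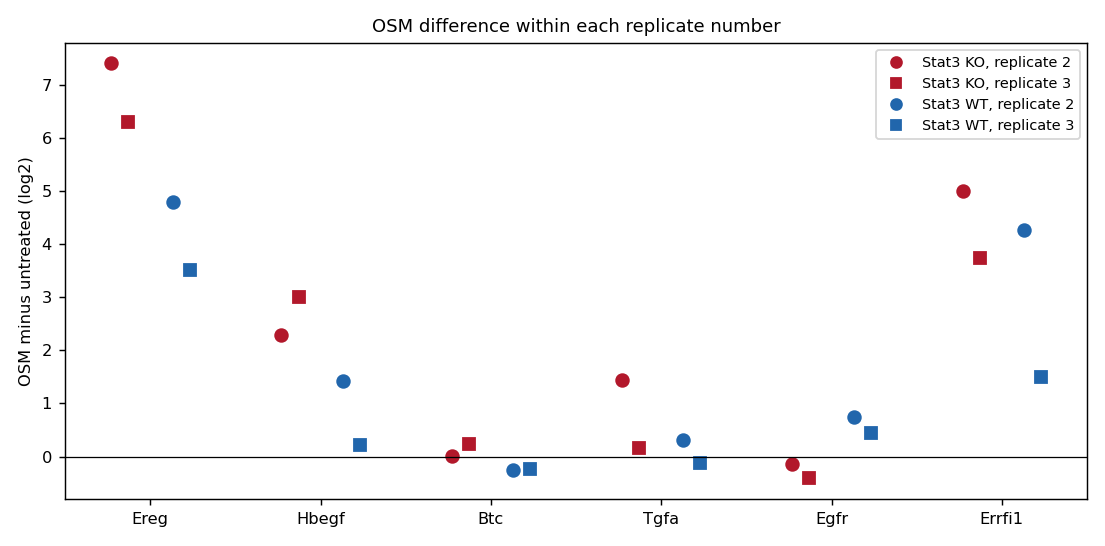
OSM minus untreated log2 difference within replicate 2 and within replicate 3, for Stat3 KO and Stat3 WT, for the probe set with the highest mean of each EGF receptor gene. For Ereg the Stat3 KO values are 7.40 and 6.30 and the Stat3 WT values 4.79 and 3.51, and for Btc all 4 values lie near 0.

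Egfr was represented by 3 probe sets, which did not move alike. The one with the highest mean, called the brightest here, read 9.76 and 9.84 in Stat3 KO OSM cells, against 9.90 and 10.25 in Stat3 KO untreated cells. In Stat3 WT OSM cells it read 9.39 and 9.72, against 8.64 and 9.28 in Stat3 WT untreated cells. The receptor transcript was thus slightly lower with OSM in Stat3 KO (log2 difference -0.27 ± 0.35) and slightly higher in Stat3 WT (0.59 ± 0.35, a ratio of 1.51), with no overlap of arrays in either. The dimmest probe set had OSM differences of -0.63 and -0.31 in Stat3 KO and 0.13 and 0.33 in Stat3 WT within replicates 2 and 3, the same signs. The middle probe set had -0.07 and 0.29 in Stat3 KO and 0.03 and 0.87 in Stat3 WT, so the replicates of Stat3 KO differed in sign. Without replicate 3 of Stat3 KO OSM the Stat3 KO differences were -0.31 for the brightest, 0.23 for the middle and -1.22 for the dimmest probe set.

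Errfi1 was measured by 2 probe sets, and both were far higher with OSM in each genotype. The brighter one read 13.22 and 13.98 in Stat3 KO OSM cells, against 8.21 and 10.24 in Stat3 KO untreated cells. It read 11.64 and 11.70 in Stat3 WT OSM cells, against 7.37 and 10.21 in Stat3 WT untreated cells. The groups did not overlap, and unlike Ereg the transcript was well above the floor before treatment. The OSM difference was 4.37 ± 1.05 in Stat3 KO (a ratio of 20.7, at rank 13) and 2.88 ± 1.05 in Stat3 WT (a ratio of 7.36, at rank 25). The dimmer probe set gave 3.95 ± 0.91 in Stat3 KO, at rank 16, and 2.75 ± 0.91 in Stat3 WT, at rank 28.

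The OSM difference of Errfi1 was unlike in size between replicates. For the brighter probe set it was, within replicate 2, 5.01 in Stat3 KO and 4.27 in Stat3 WT, a gap of 0.74, and within replicate 3 it was 3.74 in Stat3 KO and 1.49 in Stat3 WT, a gap of 2.25. Replicate 3 minus replicate 2 was 2.03 in Stat3 KO untreated and 2.84 in Stat3 WT untreated cells, against 0.77 in Stat3 KO OSM and 0.07 in Stat3 WT OSM cells. The Stat3 WT OSM arrays were thus nearly equal while the Stat3 WT untreated arrays were furthest apart. Without replicate 3 of Stat3 KO OSM the Stat3 KO difference of the brighter probe set was 3.99 and the gap between genotypes 1.11, and those of the dimmer probe set were 3.54 and 0.78.

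Over all 6756 probe sets, limma called 0% in the OSM comparison of Stat3 KO, of Stat3 WT and in the difference between them. At an unadjusted p under 0.05 there were 138 probe sets in Stat3 KO, 126 in Stat3 WT and 29 for the difference. With the replicate number as a block they were 746 in Stat3 KO, 485 in Stat3 WT and 248 for the difference. The calls were then 0.0296% in Stat3 KO, 0.0148% in Stat3 WT and 0% for the difference. OSM arrays lay above untreated arrays without overlap for 14.4% of all probe sets in Stat3 KO and 8.29% in Stat3 WT, and among the 8 kept probe sets of the EGF receptor genes for 4 in Stat3 KO (Ereg, Hbegf and both of Errfi1) and 5 in Stat3 WT (Ereg, both of Errfi1 and 2 of Egfr). They lay below without overlap for 12.3% of all probe sets in Stat3 KO, among them the brightest of Egfr, and for 9.31% in Stat3 WT, with 0 of the 8. With a separation of at least 1 log2 unit the shares were 0.696% in Stat3 KO and 0.784% in Stat3 WT, and the same 3 probe sets, of Ereg and Errfi1, met it in each. The OSM difference was larger in Stat3 KO by at least 0.5 within both replicates for 6.36% of all probe sets and for 4 of the 8, and by at least 2 for 0.222% of all probe sets, Ereg among them. With values under 5 set to 5, a gap of at least 2 was met by 0.104% of all probe sets and by 0 of the 8. These genes were chosen on these comparisons, so the counts carry no further weight.

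With OSM the genotypes are set side by side as a description, since the same Stat3 KO OSM and Stat3 WT OSM arrays take part in the values on which the genes were chosen. Ereg was 10.85 ± 0.13 in Stat3 KO and 8.78 ± 0.15 in Stat3 WT (SD, n = 2), a difference of 2.07 ± 0.57. It was 1.87 within replicate 2 and 2.28 within replicate 3, and 1.98 without replicate 3 of Stat3 KO OSM. The brighter Errfi1 probe set averaged 13.60 ± 0.54 in Stat3 KO OSM and 11.67 ± 0.05 in Stat3 WT OSM cells, 1.93 ± 1.05 apart, and the dimmer one was 1.96 ± 0.91 apart. Without replicate 3 of Stat3 KO OSM both were 1.55 apart. Hbegf averaged 9.54 ± 1.48 in Stat3 KO OSM and 7.76 ± 0.34 in Stat3 WT OSM cells, 1.78 ± 0.92 apart, and 0.73 apart without replicate 3 of Stat3 KO OSM. None of the 8 probe sets was called by limma, where 0.0148% of all probe sets were. With a replicate block 0.104% of all probe sets were called, 0.0592% higher in Stat3 KO, and again none of the 8. Stat3 KO OSM arrays lay above Stat3 WT OSM arrays without overlap for 5 of 8 (Ereg, Hbegf, both of Errfi1 and 1 of Egfr), against 11.2% of all probe sets, and by at least 1 log2 unit for 3 of 8, against 1.04%. They lay below for 0 of 8, against 13.8%. These counts are not independent of the choice of genes.

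Without OSM the genotypes are also set side by side as a description. The untreated arrays take part in the OSM differences on which the genes were chosen. Ereg averaged 4.0 ± 0.91 in Stat3 KO untreated and 4.63 ± 0.76 in Stat3 WT untreated cells, with a difference of -0.63 ± 0.57. Hbegf differed by -0.06 ± 0.92 and the Errfi1 probe sets by 0.44 ± 1.05 (the brighter) and 0.76 ± 0.91 (the dimmer, 1.07 within replicate 2 and 0.45 within replicate 3). For the receptor, the brightest probe set averaged 10.07 ± 0.24 in Stat3 KO untreated and 8.96 ± 0.45 in Stat3 WT untreated cells, higher by 1.11 ± 0.35 and by 1.26 within replicate 2 and 0.97 within replicate 3. This difference was not called by limma. The other Egfr probe sets differed by 0.98 ± 0.73 (the dimmest) and 0.16 (the middle one). None of the 8 was called, and 0% of all probe sets were, with 151 at an unadjusted p under 0.05. The arrays did not overlap, with Stat3 KO higher, for 1 of 8 (the brightest of Egfr), against 6.81% of all probe sets, with a separation of at least 1 log2 unit for 0 of 8, against 0.429%. Stat3 KO was lower without overlap for 0 of 8, against 12.4%.

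**Figure D3:**
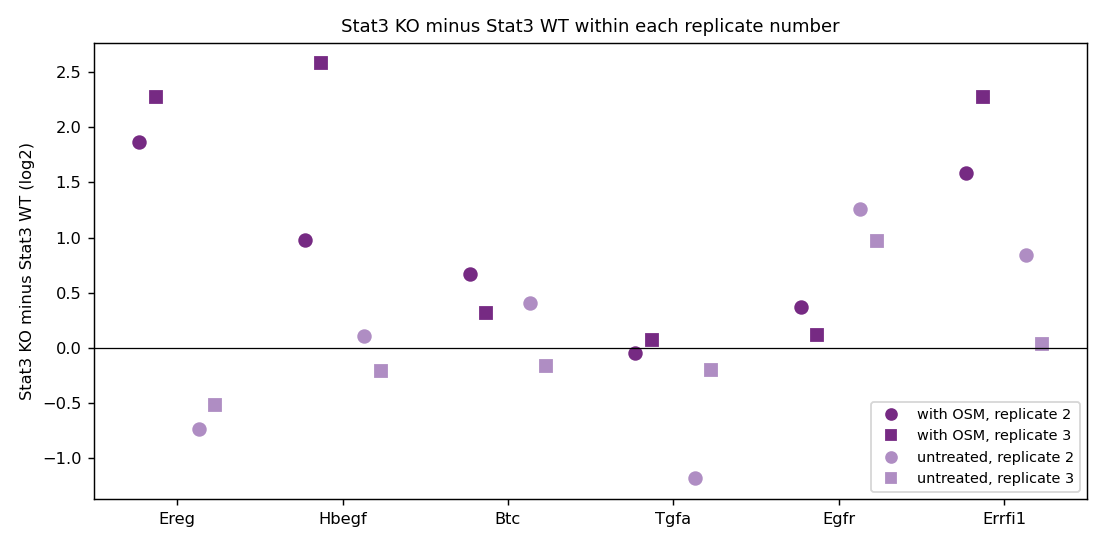
Stat3 KO minus Stat3 WT log2 difference within replicate 2 and within replicate 3, with OSM and untreated, for the probe set with the highest mean of each EGF receptor gene. With OSM Ereg lies at 1.87 and 2.28 and untreated at -0.74 and -0.52, while the brightest Egfr probe set untreated lies at 1.26 and 0.97.

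Levels also differed between the replicate numbers, across all groups. In a fit with group and number as terms, limma called 41.1% of all probe sets between replicate 3 and replicate 2, with 23.4% higher in replicate 3. Of the 8 probe sets, 4 were called, all higher in replicate 3. They were the dimmest Egfr probe set (1.15 ± 0.18, limma adjusted p = 0.00851), Btc (1.01 ± 0.18, adjusted p = 0.011), Hbegf (1.41 ± 0.29, adjusted p = 0.0162) and the dimmer Errfi1 probe set (1.25 ± 0.39, adjusted p = 0.0493). Replicate 3 lay above replicate 2 without overlap for 22% of all probe sets and 2 of the 8 (Btc and the dimmest of Egfr). Btc was under 5 on every replicate 2 array (4.10 to 4.77) and passed the filter only through replicate 3. Its call and its separation therefore carry no weight. The brighter Errfi1 probe set had 1.43 ± 0.47 (adjusted p = 0.0577), and it passed with no filter (adjusted p = 0.0431). Ereg had 0.58 ± 0.30 (adjusted p = 0.169). Its gap was 0.19 in Stat3 KO OSM and 1.29 in Stat3 KO untreated cells, and -0.22 in Stat3 WT OSM and 1.07 in Stat3 WT untreated cells. When an array is left out of this fit, the other array of its group sets only the group mean. Leaving out either array of a group thus gives the same difference, for Btc 0.94 without either array of Stat3 WT untreated cells. The fits without replicate 2 and without replicate 3 of a group are therefore not separate checks. The call of the dimmest Egfr probe set held with each array left out. The call of Hbegf was lost without replicate 2 or without replicate 3 of Stat3 WT untreated (adjusted p = 0.0663) or of Stat3 KO untreated cells (adjusted p = 0.0559). That of Btc was lost without replicate 2 of Stat3 WT untreated (adjusted p = 0.051) and without replicate 2 (0.0539) or replicate 3 (0.0514) of Stat3 WT OSM cells. The dimmer Errfi1 probe set lost its call without either array of Stat3 KO OSM (adjusted p = 0.0805 and 0.0807), of Stat3 KO untreated (0.149 and 0.15) or of Stat3 WT untreated cells (0.139 and 0.140), and the brighter one passed without either array of Stat3 WT OSM (0.0461 and 0.0462). What the number marks is not given by the labels.

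**Figure D4:**
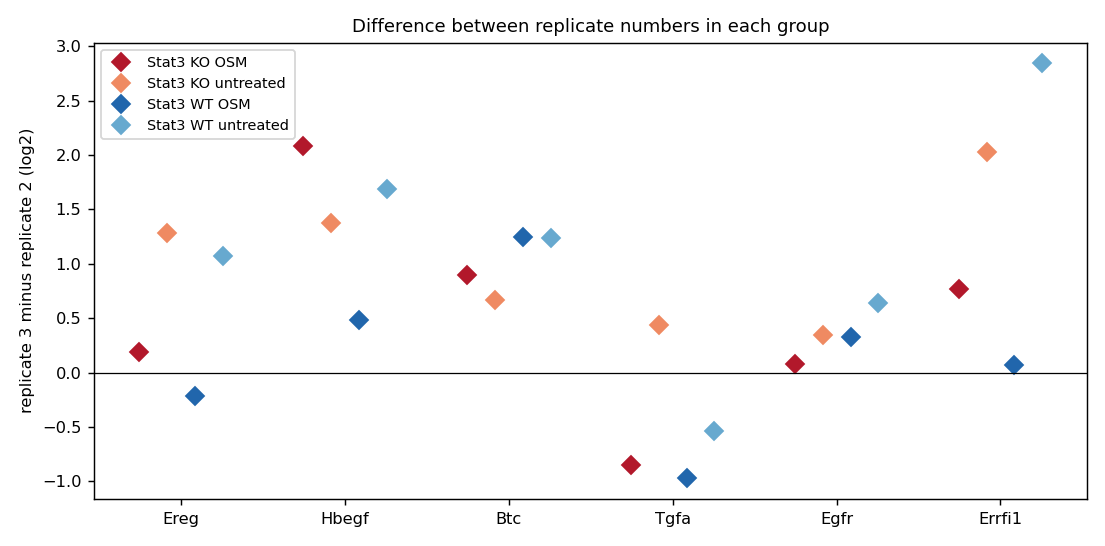
Replicate 3 minus replicate 2 log2 difference in each group for the probe set with the highest mean of each EGF receptor gene. For the brighter Errfi1 probe set the gap is 0.77 in Stat3 KO OSM, 2.03 in Stat3 KO untreated, 0.07 in Stat3 WT OSM and 2.84 in Stat3 WT untreated cells.

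Genes with the most similar values were found by the root mean square difference of log2 values over the 8 arrays, after the mean of each replicate number was taken off, among 5195 genes. As the EGF receptor genes were chosen on these arrays, the lists are a description. Nearest to Ereg were Fosl1, which encodes a Fos-family transcription factor (1.04 log2 units), Errfi1 (1.05), Egr2, an immediate early zinc finger factor (1.37), Gbp2b, a guanylate-binding protein (1.39), and Has2, a hyaluronan synthase (1.44). Hbegf was at rank 26 from Ereg. The OSM difference of Fosl1 was 4.14 in Stat3 KO and 3.10 in Stat3 WT, and that of Egr2 4.67 in Stat3 KO (3.18 without replicate 3 of Stat3 KO OSM) and 2.12 in Stat3 WT. Has2 had 4.67 in Stat3 KO and 4.68 in Stat3 WT, and its gap between genotypes was -1.05 in replicate 2 and 1.03 in replicate 3. The gap of Ereg was 2.70 ± 0.81, or 2.15 with values under 5 set to 5. Nearest to Errfi1 were Fosl1 (0.512), Gbp2b (0.591) and Gbp7 (0.710). Hbegf was nearest to Ier2, an immediate early gene (0.493), Gdnf, a neurotrophic growth factor (0.508), and Gbp2 (0.523), and Egfr to Polb (0.182), Ifitm3 (0.190) and Hltf (0.198).

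**Figure D5:**
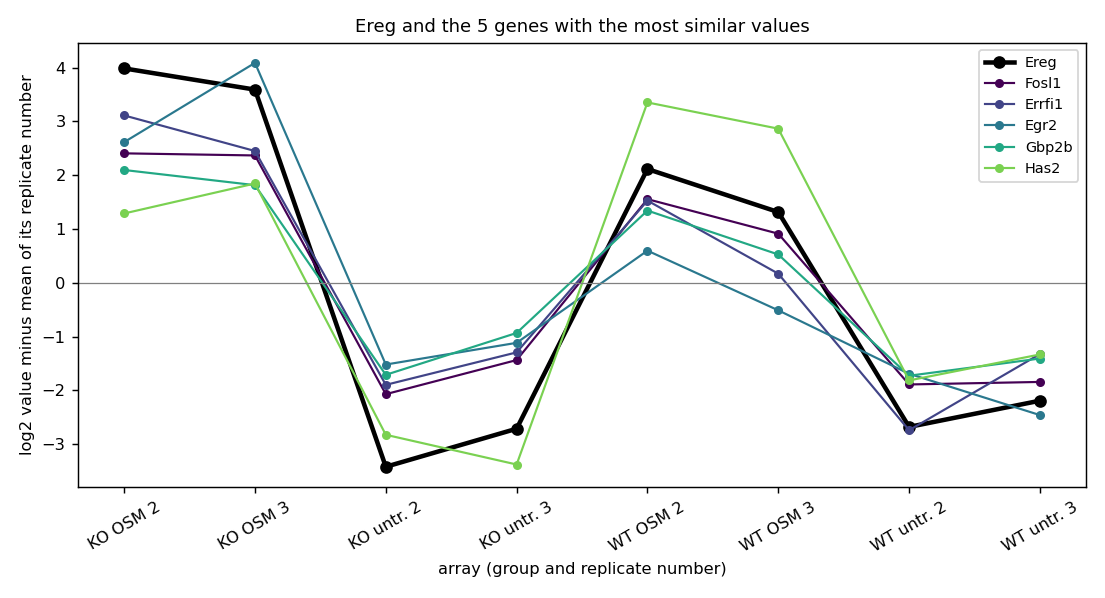
Log2 values on the 8 arrays, with the mean of each replicate number taken off, for Ereg and its 5 nearest genes (Fosl1, Errfi1, Egr2, Gbp2b and Has2). For each gene the OSM arrays lie above the untreated arrays of the same genotype, and for Has2 the Stat3 WT OSM arrays lie above the Stat3 KO OSM arrays, the reverse of Ereg.

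The rest of the pathway was read from lists chosen by role. In the OSM and genotype comparisons limma called no gene of these lists, with or without a replicate block. Of 9 other ErbB ligands and receptors 4 were on the array, and only Erbb4 was kept, with an OSM difference of -0.80 in Stat3 KO and 0.31 in Stat3 WT. In Stat3 KO it was -1.77 in replicate 2 and 0.17 in replicate 3, so the replicates differed in sign, and without replicate 2 of Stat3 KO untreated cells the mean was -0.17. Egf, Erbb3 and Nrg3 were under 5 on every array. Of 12 genes for shedding and trafficking of ligands 9 were on the array, and 7 of the 8 kept lay above 0 in Stat3 KO with a median of 0.50, and 6 in Stat3 WT with a median of 0.21. Over all genes the median was 0.01 with 51.4% above 0 in Stat3 KO and -0.06 with 42.8% above 0 in Stat3 WT. The adaptors and the Ras-ERK cascade (23 listed, 18 on the array) had 7 of 14 kept genes above 0 in each genotype, and the PI3-kinase branch (16 listed, 13 on the array) had 5 of 10 in Stat3 KO and 2 of 10 in Stat3 WT, with a median of -0.14 in Stat3 WT.

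The list of ERK output genes, which hold immediate early factors and phosphatases that ERK switches on, had the highest medians of these lists. Of 23 listed genes 17 were on the array and kept, and 15 lay above 0 in Stat3 KO, with a median of 1.61, and 14 in Stat3 WT, with a median of 1.15. The arrays were at least 1 log2 unit higher in the mean for 11 in Stat3 KO and 9 in Stat3 WT, against 5.22% and 3.48% of all genes. Genes that attenuate receptor signals (24 listed, 12 on the array) had 6 of 9 above 0 in Stat3 KO with a median of 0.77, and 5 of 9 in Stat3 WT with a median of 0.09. Without replicate 3 of Stat3 KO OSM, a setting chosen after the data were seen, the Stat3 KO medians were 1.10 for the ERK output genes (14 of 17 above 0), 0.39 for attenuation (6 of 9), 0.23 for shedding (5 of 8), -0.12 for adaptors and Ras-ERK (6 of 14) and -0.05 for the PI3-kinase branch (5 of 10). Genes of these lists that were called between replicate 3 and replicate 2 are named next, since no other fit called any.

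Between replicate 3 and replicate 2, 41.1% of all probe sets were called, with 23.4% higher in replicate 3. The counts of the lists below were not tested against these shares, which count probe sets where the lists count genes. In replicate 3 against replicate 2, 8 of 17 ERK output genes were called, all higher. Fos, the immediate early AP-1 factor, differed by 6.16 (limma adjusted p = 0.00316), and Dusp1, a MAP kinase phosphatase, by 2.63 (adjusted p = 0.00675). In replicate 2 Fos was under 5 in every group but Stat3 KO OSM (5.67), down to 2.70. Fos thus passed the filter only through replicate 3, so its call, which is among those counted, carries no weight. The size of its difference also depends on values that were not above the floor. Ier3 differed by 1.94 (adjusted p = 0.011) and Phlda1 by 2.12 (adjusted p = 0.0158). Of the shedding genes 2 were higher and 1 was lower: the proteases Adam9 at 2.39 (adjusted p = 0.00851), Adam10 at 0.65 (adjusted p = 0.0231) and Adam19 at -2.10 (adjusted p = 0.0388). Adam10 is a main sheddase of EGF receptor ligands, but its other kept probe set was lower in replicate 3 in every group. That probe set read 10.08 in replicate 2 and 8.90 in replicate 3 of Stat3 KO OSM cells. In Stat3 WT untreated cells it read 10.91 and 8.71, so the probe sets of Adam10 disagree. Of the adaptors and kinases 5 of 14 were called, all higher, among them Map2k1, an ERK-activating kinase, at 1.15 (adjusted p = 0.00467), Crk, an adaptor, at 1.14 (adjusted p = 0.00733), Nck1 at 0.87 (adjusted p = 0.0106) and Sos2, a Ras exchange factor, at 1.13 (adjusted p = 0.0209). Nck1 was under 5 on every replicate 2 array (4.64 to 4.77) and passed the filter only through replicate 3, so its call carries no weight. The PI3-kinase list had 4 of 10 higher and 2 lower, with Pik3r1 at 1.33 (adjusted p = 0.00644), Prkca at 0.83 (adjusted p = 0.023), Akt1 at -0.48 (adjusted p = 0.0296) and Pik3ca at 0.64 (adjusted p = 0.0308). Another kept Pik3ca probe set was not higher throughout. It read 6.89 in replicate 2 and 7.51 in replicate 3 of Stat3 KO untreated cells, but 8.39 and 7.77 in Stat3 WT untreated cells. The attenuation list had 2 of 9 higher and 2 lower, namely Eps15 at 1.34 (adjusted p = 0.02), Ptpn2, a tyrosine phosphatase, at 1.01 (adjusted p = 0.0402), Socs5 at -1.18 (adjusted p = 0.0061) and Hgs, which sorts receptors for degradation, at -0.86 (adjusted p = 0.0179). Another kept Eps15 probe set moved little in most groups. It read 7.84 in both replicates of Stat3 KO OSM cells, and 7.77 and 7.79 in replicates 2 and 3 of Stat3 WT untreated cells. In Stat3 WT OSM cells it read 7.59 and 7.69, and in Stat3 KO untreated cells 7.11 and 7.97. With 1 array left out, the calls over all probe sets numbered 1223 to 2599, against 2775 with all arrays.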

How the data were processed

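Transcripts were measured on Affymetrix arrays, 8 in all, with biotin-labelled RNA per the labels' protocols. The authors deposited 1 log2 expression value for each probe set and array. The submitters' processing notes name GCRMA and affy. Tool versions and the set of arrays normalized at once are not given in the sources used. GCRMA draws dim signals to low values, so log2 differences against a dim group can come out large.

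Of 12488 deposited probe sets, 66 were array controls and were left out. In the platform annotation 10833 have 1 gene symbol, 396 several and 1193 none. Probe sets at log2 5 or more on at least 2 arrays were kept, and a gene in a list was represented by its kept probe set with the highest mean. The tests used limma 3.58.1 (R 4.3.3; lmFit, eBayes with trend, 4 group means, 4 residual degrees of freedom, two-sided, Benjamini-Hochberg over 6756 probe sets, call at adjusted p under 0.05). The procedure was also run on simulated data with changes of a set size, and calling them was required only of the fit with a replicate block. That run does not show how many changes the fit without block would call on these arrays. No label says that the arrays of a group were separate cultures. The p-values therefore reflect only array-to-array spread, possibly technical, and the number of arrays limits the precision.

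Replicate numbers were checked for pairing. Replicate 3 minus replicate 2 correlated at 0.589 to 0.911 between groups over all probe sets kept, so the numbers were treated as pairing the arrays on the evidence of the data. The fit as planned has no replicate block, and the block, with 3 residual degrees of freedom, is an alternative. Standard errors of OSM and genotype differences are from the fit without block, so they include the spread between replicate numbers. With the block, the error of the OSM difference was 0.41 in place of 0.92 for Hbegf and 0.43 in place of 0.57 for Ereg. For the brighter Errfi1 probe set it was 0.67 in place of 1.05.

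The genes and lists were chosen with earlier results of these data known. Named genes were all probe sets of the EGF receptor genes, Stat3, the 5 genes nearest Ereg and the 3 nearest Hbegf, Errfi1 and Egfr, and up to 4 called members of each pathway list, or the 2 with the largest mean OSM difference where none was called. Alternatives were no filter, a floor of 7, no trend, robust estimation, only the groups compared, quantile normalization, median centring, values under 5 set to 5, other probe sets, the replicate block, single replicates and leaving out each array. Leaving out arrays for the pathway lists, nearest genes and neighbours, and a gap of at least 2 with values under 5 set to 5, were added after the data were seen. Promoter sequences are from RefSeq for GRCm38.p6.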

Additional observations from a re-analysis of the deposited data

Results flagged for a closer look

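For 4 probe sets of the EGF receptor genes the OSM minus untreated difference had one sign on both Stat3 KO replicates and the opposite sign on both Stat3 WT replicates, and the difference was not tested. Of the 8 kept probe sets of these genes 3 showed this, against 14.6% of all probe sets kept. For the brightest Egfr probe set the differences were -0.14 and -0.41 in Stat3 KO and 0.75 and 0.44 in Stat3 WT, and for the dimmest Egfr probe set -0.63 and -0.31 in Stat3 KO and 0.13 and 0.33 in Stat3 WT. The middle Egfr probe set did not share this. For Btc they were 0.011 and 0.24 in Stat3 KO and -0.25 and -0.24 in Stat3 WT, with levels under 5 in replicate 2 of every group. For the Ereg probe set that was under 5 on every array, they were 0.18 and 0.39 in Stat3 KO and -0.15 and -0.10 in Stat3 WT. Values under 5 have little order, so these last signs carry little weight.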

How the results depend on the processing

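The OSM difference of Ereg kept its sign in both genotypes under every alternative run on its kept probe set. With values under 5 set to 5 it was 5.85 in Stat3 KO. In Stat3 WT it was 4.79 within replicate 2 and 3.51 within replicate 3. On the Ereg probe set that stayed under 5 it was 0.28 in Stat3 KO and -0.12 in Stat3 WT, a difference of 0.41. Leaving out each array in turn gave 6.21 to 7.50 in Stat3 KO, 3.61 to 4.68 in Stat3 WT and 2.06 to 3.35 for the difference between them. The lowest and highest Stat3 KO values came without replicate 2 and without replicate 3 of Stat3 KO untreated cells. For Errfi1 that difference ran from 0.07 without replicate 3 of Stat3 WT untreated cells to 2.92 without replicate 2 of them, and its OSM difference in Stat3 WT from 4.30 to 1.46.

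With the replicate block, limma called 2 probe sets in the OSM comparison of Stat3 KO, 1 in that of Stat3 WT and 7 between the genotypes with OSM. The last count was 1 in the fit without block and 0 without trend, with robust estimation, with only the groups compared, with quantile normalization, with median centring and with values under 5 set to 5. It was 0 to 1 when each array was left out. No EGF receptor gene changed its call between genotypes under any of these. The direction between untreated Stat3 KO and Stat3 WT cells was not stable for the genes close to 0. Over the fits that left out 1 array it ran from -1.28 to 0.013 for Ereg, from -0.90 to 0.79 for Hbegf, from -0.50 to 0.74 for Btc and from -0.98 to 1.86 for Errfi1, and Btc was at -0.083 with values under 5 set to 5. With OSM, Btc ran from -0.13 to 1.12. Between replicate 3 and replicate 2, 7210 probe sets were called with no filter and 1223 to 2599 when 1 array was left out, with 1 to 4 of the EGF receptor probe sets among them. The cause of these changes was not tested. With 2 arrays per group, values under 5 and differences under about 1 log2 unit have little precision.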

Other observations

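Ereg lies on chromosome 5 in a run of genes that RefSeq orders as Cxcl1, Cxcl2, Mthfd2l, Epgn, Ereg, Areg, Btc, Parm1, Rchy1, Odaph and Cdkl2. Cxcl1, a chemokine gene, had OSM differences of 0.51 in Stat3 KO and 1.45 in Stat3 WT, and its other probe set had 0.34 in Stat3 KO and 1.93 in Stat3 WT. By replicate the first probe set had 0.46 and 0.56 in Stat3 KO and 2.58 and 0.31 in Stat3 WT, so the genotype with the higher value was not the same in both replicates, and without replicate 2 of Stat3 WT untreated cells the Stat3 WT means of these probe sets were -0.44 and -0.23. Parm1 had -0.24 in Stat3 KO and -0.13 in Stat3 WT, and Cdkl2 had 0.39 in Stat3 KO and 0.46 in Stat3 WT. Cxcl2 was under 5 on every array.

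A few genes of the pathway lists were looked at after their values were seen, so they are given as values. Gab1, a docking protein below the receptor, had OSM differences of -0.99 ± 0.40 in Stat3 KO and -1.13 ± 0.40 in Stat3 WT. Its other kept probe set had -0.74 in Stat3 KO and -0.40 in Stat3 WT, so the probe sets disagree on which genotype had the larger decrease. Ptpn1, a tyrosine phosphatase, had 1.23 ± 0.54 in Stat3 KO and 1.10 ± 0.54 in Stat3 WT, and Spred2, an inhibitor of Ras-ERK signalling, had 1.22 ± 0.42 in Stat3 KO and 0.80 ± 0.42 in Stat3 WT. Adam8, a membrane protease, had 1.78 ± 1.04 in Stat3 KO and 0.38 ± 1.04 in Stat3 WT. The Stat3 KO value of Adam8 was 0.42 in replicate 2 and 3.13 in replicate 3, and 0.13 without replicate 3 of Stat3 KO untreated cells.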
